A study of Rattus norvegicus with 6 samples.

Results

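Wnt ligands, their receptors and the proteins that modulate them were followed in rat sciatic nerve with chronic constriction injury (CCI), a model of neuropathic pain made by tying loose ligatures around the nerve. The members are the genes of the count table whose symbols name a Wnt, a Frizzled receptor, an LRP5/6 or ROR co-receptor, a secreted Wnt inhibitor, a Dickkopf protein, Notum, an R-spondin with its LGR receptors and E3 ligases, an enzyme or carrier of Wnt secretion, or beta-catenin with its Axin and TCF/LEF partners. This rule found 63 of 29884 genes, and it used no measured value. RNA was sequenced from the injured nerve of wild-type rats in 3 untreated libraries and in 3 libraries from nerves treated with the PLLA-PCL-RVC conduit, which the series describes as piezoelectric and loaded with ropivacaine, a local anaesthetic. Both groups therefore carry the injury, and the material, the piezoelectric property and the drug cannot be told apart in this comparison. The labels give no time after injury, age, sex or strain. They also do not say whether each library is a separate animal, so the p-values below reflect variation between libraries, which may be partly technical.

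Wnt proteins are secreted glycoproteins that Porcn modifies with a lipid and Wls carries to the cell surface. When a Wnt binds a Frizzled receptor together with Lrp5 or Lrp6, the complex of Axin, Apc and Gsk3 stops marking beta-catenin for degradation, and beta-catenin enters the nucleus and activates target genes with TCF/LEF factors. Other Wnts act through Ror receptors or the planar cell polarity proteins without beta-catenin. R-spondins bind Lgr4, Lgr5 and Lgr6 and hold back Znrf3 and Rnf43, the E3 ligases that remove Frizzled from the surface. Sfrp proteins, Wif1, Notum and Dickkopf proteins such as Dkk1 restrain the signal outside the cell. In peripheral nerve the pathway is known for roles in Schwann cell proliferation and in the control of myelin genes.

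Library totals ran from 38401951 to 42225086 counts. Values by library are CPM, counts scaled by library size after TMM normalization, which aligns the bulk of genes between libraries. Levels of different genes are compared only as FPKM, which accounts for gene length. Log2 fold changes are conduit minus untreated with their standard error (SE), and p-values are Benjamini-Hochberg adjusted values over all genes from edgeR's quasi-likelihood test, called under 0.05. Many genes differed between the groups: 50.2% of the 15464 genes tested were called, 24.0% higher and 26.2% lower in conduit nerves. Schwann cell markers were present in all 6 libraries, but the tissue make-up differed. Summed CPM of the Schwann list ran from 10054 to 21913 in untreated and from 124224 to 162462 in conduit libraries, with 9 of 10 markers higher. Perineurial markers summed to 352 to 564 against 2050 to 2492 CPM (6 of 7 tested higher, 1 lower, Lypd2 at 0 in all libraries), and fibroblast markers to 10381 to 21806 against 18691 to 38037 CPM (3 of 11 higher, 2 lower). Macrophage markers summed to 1489 to 2038 against 159 to 370 CPM (10 of 10 lower), T cell markers to 52.5 to 139 against 4.37 to 6.27 CPM (7 of 8 lower), and proliferation genes to 247 to 349 against 13.2 to 23.7 CPM (8 of 8 lower). Skeletal muscle markers summed to 11257 CPM in untreated replicate 1 and to at most 81.2 CPM in the other libraries, and adipocyte markers to 1410 CPM in conduit replicate 3 and at most 399.8 CPM elsewhere. The part of these shifts in the Wnt gene results was not tested, and in bulk tissue fewer cells of a type and less RNA per cell cannot be told apart. The labels carry 5 batch numbers and none holds both groups, so batch and treatment cannot be told apart.

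Of the 63 members, 51 passed the low-count filter and 23 of these were called, 20 higher and 3 lower in conduit nerves. The share called was 45.1% of members tested against 50.2% of all genes, the share higher 39.2% against 24.0%, and the share lower 5.88% against 26.2%. The 3 that fell were Fzd6, Sfrp1 and Ror2. The median log2 fold change over the 51 was 0.51, against -0.043 over all genes tested, and the libraries of the groups did not overlap in 24 members, against 61.7% of all genes. Dkk1, Notum and Rspo3 passed the filter through the conduit libraries alone and had to be high there. Without them 48 members were tested, 17 of them (35.4%) higher and 3 (6.25%) lower, with a median of 0.43. The 17 still include Rspo4, Rnf43 and Fzd9, which reached the filter's limit in only part of the untreated libraries. They too were tested with the help of conduit libraries, so the 35.4% is not free of the filter. With untreated replicate 2 or 3 or conduit replicate 1 left out, 1 member was called lower in place of 3. The counts also depend on the scaling. With library totals alone in place of TMM, all fold changes shift down by a median of 0.39 on the log2 scale and the higher share of all called genes drops from 47.8% to 25.9%. Under that scaling 15 of the 51 members were higher and 6 lower. The share higher was larger than the 14.8% of all genes, and the share lower smaller than the 42.4%. The members' median was 0.12, against -0.43 over all genes tested. The 18 members called by both scalings had the same direction in both, 15 of them higher. These 15 still include Dkk1, Notum and Rspo3, as do the 15 called higher with library totals, so these counts are not free of the filter.

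**Figure D1:**
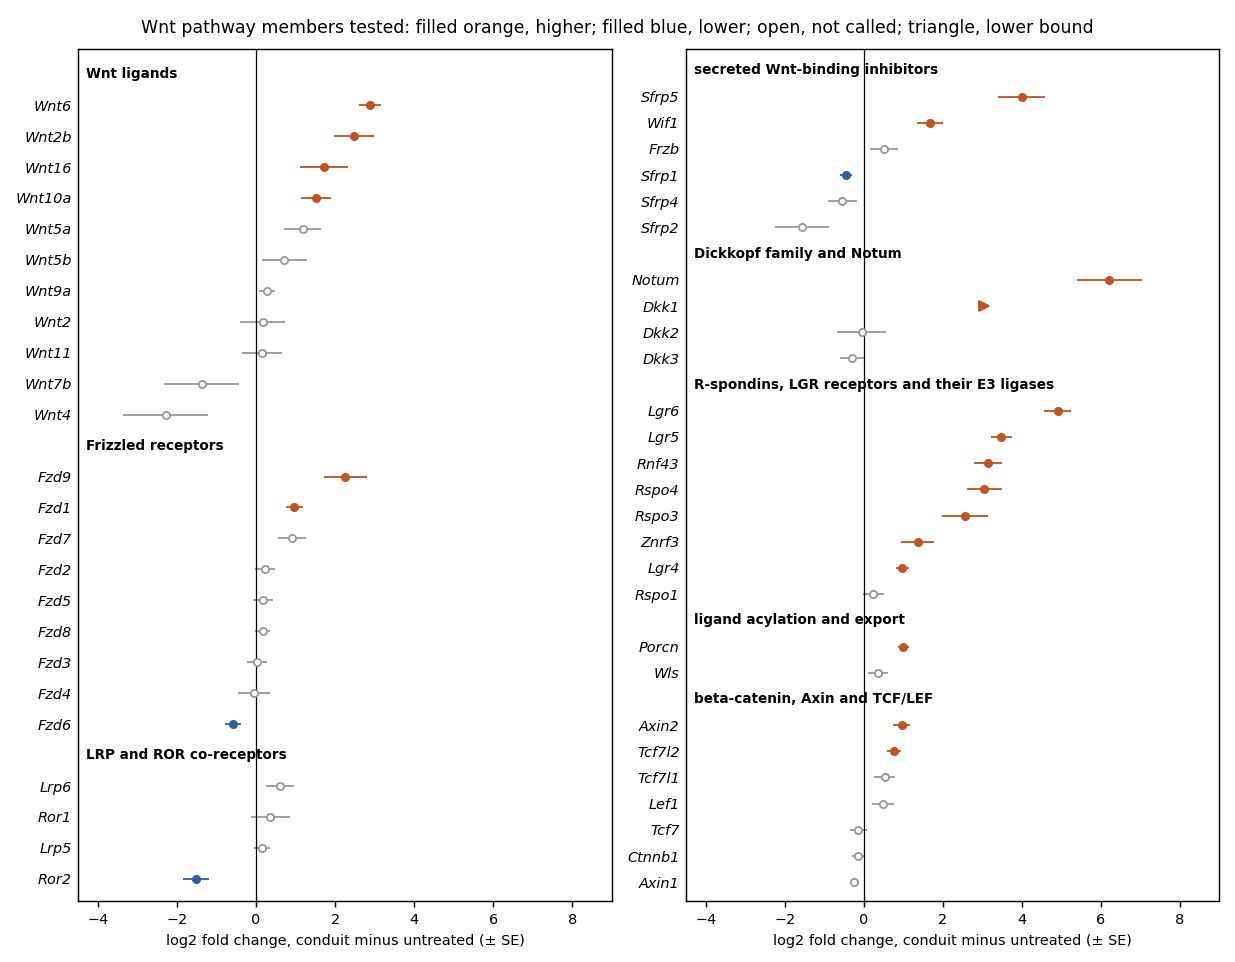
Log2 fold change (conduit minus untreated, bars are SE) of the 51 tested members by role, orange higher, blue lower and open not called; the triangle for Dkk1 is a lower bound. In the R-spondin, LGR and E3 ligase group 7 of 8 tested members were called higher, Rspo3 among them having passed the filter through the conduit libraries alone, and the 3 members called lower are in other groups.

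Among the 19 Wnt ligands, 11 were tested, 4 rose (Wnt6, Wnt2b, Wnt10a and Wnt16) and none of the tested ligands was called lower. The share higher was 36.4% of the tested ligands, against 24.0% of all genes, and the share called in either direction 36.4% against 50.2%. Wnt6 had 6.36, 5.09 and 10.3 CPM in untreated replicates 1, 2 and 3, and 59.8, 54.5 and 46.6 CPM in the conduit replicates. Every conduit library lay above every untreated library, with a log2 fold change of 2.89 ± 0.27 (SE, n = 3 per group, edgeR adjusted p = 0.000199). Wnt2b, a ligand of the beta-catenin branch, had 0.887, 1.11 and 2.74 CPM in the untreated and 6.30, 7.21 and 13.0 CPM in the conduit libraries. The groups did not overlap, untreated replicate 3 and conduit replicate 3 were the highest of their groups, and the log2 fold change was 2.49 ± 0.50 (edgeR adjusted p = 0.00545), or 3.14 without untreated replicate 3. Wnt10a rose from 0.724 ± 0.235 to 2.09 ± 0.490 CPM (mean ± SD, n = 3; log2 fold change 1.53, edgeR adjusted p = 0.0130), a call lost without conduit replicate 1 (edgeR adjusted p = 0.0501). Wnt16 rose from 0.580 ± 0.376 to 1.92 ± 1.00 CPM (log2 fold change 1.72, edgeR adjusted p = 0.0462). Its libraries overlapped, and the call was lost with library totals (edgeR adjusted p = 0.0896) and when either of untreated replicates 1 and 2 or conduit replicates 2 and 3 was left out (0.0850 to 0.154).

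Wnt5a, the best known ligand of Ror2, had 1.90, 3.21 and 4.26 CPM in the untreated and 3.22, 7.32 and 10.6 CPM in the conduit libraries. The groups overlapped at their edge and the difference was not called (log2 fold change 1.18, edgeR adjusted p = 0.0751); it was called without conduit replicate 1 (edgeR adjusted p = 0.0215) and by DESeq2 (adjusted p = 0.0219). Wnt5b was not called at a log2 fold change of 0.71, but was without untreated replicate 3 (1.55, edgeR adjusted p = 0.0336). Wnt4 had 0.920 ± 0.761 CPM in the untreated and 0.187 ± 0.254 CPM in the conduit group (log2 fold change -2.29, edgeR adjusted p = 0.114), called without conduit replicate 2 (-4.38, edgeR adjusted p = 0.0271). Wnt9a, Wnt2, Wnt11 and Wnt7b had log2 fold changes of 0.27, 0.17, 0.14 and -1.38 and were not called. The 8 ligands with too few counts to test were Wnt1, Wnt3, Wnt3a, Wnt7a, Wnt8a, Wnt8b, Wnt9b and Wnt10b. Wnt3a and Wnt8b had no count in any library, and the highest count among the 8 was 59, for Wnt9b in untreated replicate 2. Wnt9b had 6, 59 and 30 counts in the untreated and 0, 7 and 5 counts in the conduit libraries, which overlapped. In alternatives that tested it, Wnt9b was called lower by DESeq2 (log2 fold change -2.60, adjusted p = 0.0452) and without untreated replicate 1 (-3.07, edgeR adjusted p = 0.0319), but not without the low-count filter (-2.58, edgeR adjusted p = 0.0897).

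On the FPKM scale, where genes can be compared with each other, the ligand pool was larger and less even in conduit nerves. Summed ligand FPKM was 8.42, 7.73 and 15.5 in the untreated and 33.0, 32.4 and 34.4 in the conduit libraries. Wnt6 made up 38.3% ± 2.30 of it in untreated and 68.3% ± 8.43 in conduit nerves (SD, n = 3), and was the most abundant ligand in both groups. Wnt9a went from 19.6% to 5.40% of ligand FPKM while its own CPM was not called, and Wnt2b from 9.15% to 13.1%. The ratio of Wnt6 to Wnt9a FPKM within a library was 2.02 ± 0.432 in untreated and 12.9 ± 3.06 in conduit nerves, a measure that no scaling of libraries can move. Of the genes that prepare ligands for secretion, Porcn, the acyltransferase of the endoplasmic reticulum, had 9.69, 10.4 and 8.997 CPM in the untreated and 20.2, 19.9 and 18.2 CPM in the conduit libraries. All conduit libraries lay above all untreated ones, with a log2 fold change of 1.00 ± 0.14 (edgeR adjusted p = 0.000957). Wls, the carrier, was not called (log2 fold change 0.36, edgeR adjusted p = 0.260).

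**Figure D2:**
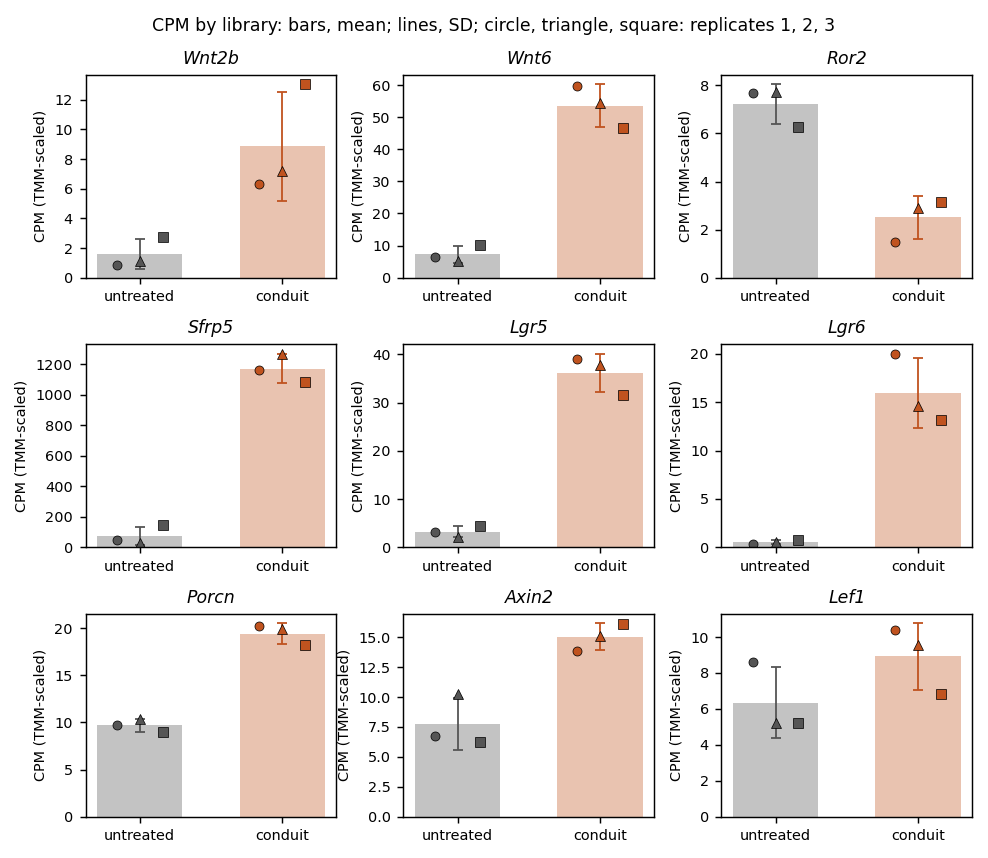
CPM in each library for the members described by library; bars are group means, lines are SD, the circle, triangle and square are replicates 1, 2 and 3, and each panel has its own scale starting at 0. Wnt6, Sfrp5, Lgr5, Lgr6 and Porcn separate fully upward, Ror2 separates downward, and the groups overlap for Lef1.

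Of 10 Frizzled receptors, which bind Wnts directly, 9 were tested, Fzd1 and Fzd9 rose and Fzd6 fell. These are 22.2% higher and 11.1% lower, against 24.0% and 26.2% of all genes, and 7 of the 9 log2 fold changes were positive. Fzd1 had 28.1, 33.3 and 32.6 CPM in the untreated and 47.9, 53.6 and 82.9 CPM in the conduit libraries, which did not overlap (log2 fold change 0.97 ± 0.22, edgeR adjusted p = 0.00806); with library totals the call was lost (0.59, edgeR adjusted p = 0.0653). Fzd9 rose from 0.338 ± 0.177 to 1.62 ± 0.529 CPM (log2 fold change 2.26, edgeR adjusted p = 0.0107). Fzd6, known from hair and tissue polarity, fell from 15.1 ± 2.77 to 9.999 ± 1.62 CPM (log2 fold change -0.59, edgeR adjusted p = 0.0423), a call lost on leaving out any of untreated replicates 2 and 3 and conduit replicates 1 and 2 (edgeR adjusted p = 0.0850 to 0.146). Fzd7 had 5.25 ± 1.61 and 9.83 ± 4.15 CPM and missed the threshold (log2 fold change 0.91, edgeR adjusted p = 0.0732), although its groups did not overlap; it was called by DESeq2 (adjusted p = 0.0273) and without conduit replicate 1 (edgeR adjusted p = 0.0459). Fzd2, Fzd3, Fzd4, Fzd5 and Fzd8 had log2 fold changes from -0.05 to 0.22 and were not called; without untreated replicate 3, Fzd2 was (0.57, edgeR adjusted p = 0.0275). Fzd10 had at most 17 counts and was not tested; without conduit replicate 2 it passed the filter and was called higher (2.24, edgeR adjusted p = 0.0368). Summed Frizzled FPKM was 57.2 ± 13.7 in untreated and 54.5 ± 14.3 in conduit nerves, a difference smaller than the spread. These sums are scaled by library totals and not by TMM, so they are not on the scale of the log2 fold changes above. Fzd2 held the largest share in both groups (45.8% and 44.5%). Fzd1 took 14.6% of Frizzled FPKM in untreated and 22.3% in conduit nerves, and Fzd4 19.1% and 13.8%.

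The co-receptors of the beta-catenin branch were not called: Lrp5 had a log2 fold change of 0.14 and Lrp6 of 0.60 (edgeR adjusted p = 0.590 and 0.201). Ror2, a receptor tyrosine kinase of the branch that works without beta-catenin, had 7.68, 7.71 and 6.26 CPM in the untreated and 1.48, 2.88 and 3.17 CPM in the conduit libraries. Every conduit library lay below every untreated one, and Ror2 fell by 1.52 on the log2 scale (SE 0.32, edgeR adjusted p = 0.00636). Its relative Ror1 was not called at a log2 fold change of 0.36 (edgeR adjusted p = 0.564).

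The secreted inhibitors that bind Wnts themselves changed most in make-up. Sfrp5, a frizzled-related protein, had 50.3, 27.1 and 143 CPM in the untreated and 1162, 1269.5 and 1083 CPM in the conduit libraries. Untreated replicate 3 was the highest of its group and still lay far below every conduit library, and the log2 fold change was 3.99 ± 0.60 (edgeR adjusted p = 0.00147), or 4.92 without that library. Wif1, which binds Wnts through its own domain type, rose from 0.849 ± 0.160 to 2.73 ± 0.604 CPM (log2 fold change 1.68, edgeR adjusted p = 0.00484). Sfrp1 had 82.2, 105 and 113 CPM in the untreated and 63.8, 75.3 and 79.9 CPM in the conduit libraries. The groups did not overlap and Sfrp1 fell by 0.46 on the log2 scale (edgeR adjusted p = 0.0468), close to the threshold; the call was lost without untreated replicate 2 or 3 or any 1 of the conduit replicates (edgeR adjusted p = 0.0798 to 0.174) and with RLE scaling (0.0531). Sfrp2 had 27.3, 56.7 and 82.1 CPM in the untreated and 4.78, 15.7 and 35.7 CPM in the conduit libraries. Conduit replicate 3 overlapped the untreated group and the difference was not called (log2 fold change -1.56, edgeR adjusted p = 0.0942), but it was without that library (-2.40, edgeR adjusted p = 0.0249) and with library totals (-1.93, edgeR adjusted p = 0.0490). Sfrp4 and Frzb were not called (log2 fold changes -0.55 and 0.51).

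In FPKM, the summed level of these inhibitors was 131, 131 and 253 in the untreated and 543, 614 and 572 in the conduit libraries. Sfrp5 made up 22.0% ± 9.95 of it in untreated nerves, second to Sfrp4 at 41.3%, and 89.3% ± 3.66 in conduit nerves, where Sfrp4 was at 6.25%, Sfrp1 at 2.66% and Sfrp2 at 1.45%. With 514 ± 26.6 FPKM, Sfrp5 was the most abundant of all members in conduit nerves, whereas Ctnnb1, which encodes beta-catenin, was in untreated nerves at 109 ± 18.6 FPKM. The ratio of Sfrp5 to Sfrp1 FPKM within a library was 1.49 ± 1.07 in untreated and 34.0 ± 5.01 in conduit nerves. The ratio of summed inhibitor FPKM to summed ligand FPKM was 15.6, 16.9 and 16.3 in the untreated and 16.4, 18.9 and 16.6 in the conduit libraries, and the groups overlapped. Adding ligands and inhibitors by FPKM weighs each transcript alike and says nothing of protein.

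**Figure D3:**
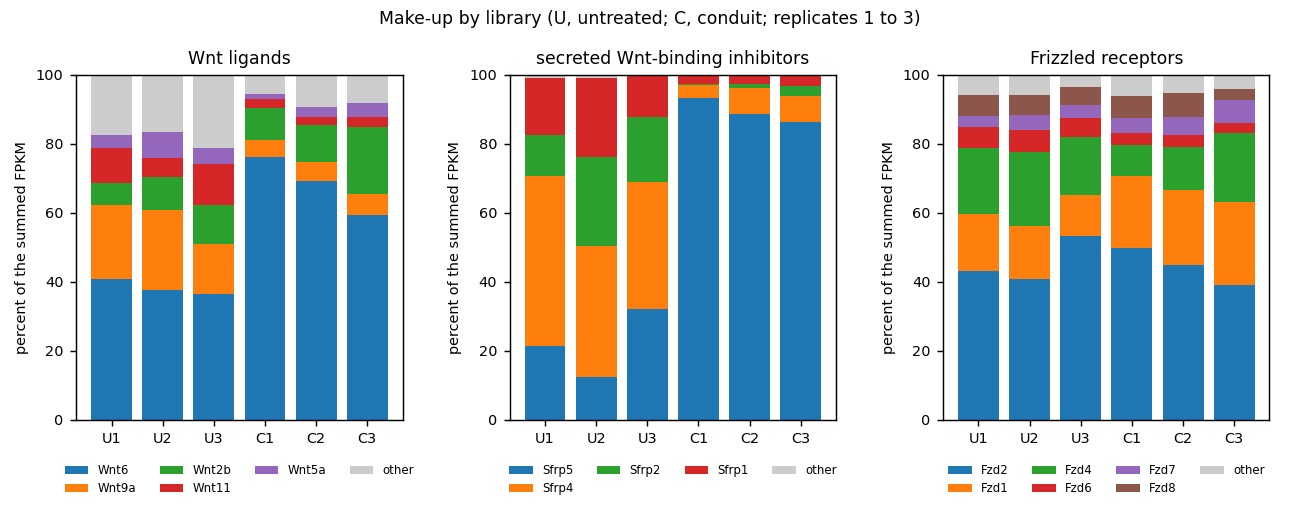
Share of summed FPKM (percent) taken by selected genes among Wnt ligands, secreted Wnt-binding inhibitors and Frizzled receptors, 1 bar per library, with the remaining genes together as other. Wnt6 takes 68.3% and Sfrp5 89.3% of their pools on average in conduit nerves, against 38.3% and 22.0% in untreated nerves.

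Of the Dickkopf family and Notum, 4 of 6 members were tested, and Dkk1 and Notum rose from near absence to under 1 CPM on average. Neither would have been tested without its conduit libraries, so their count is no measure of the group. Dkk1, which blocks Lrp5 and Lrp6, had no count in the 3 untreated libraries and 29, 15 and 15 counts in the conduit libraries. With 3 counts per library as the floor for a count of 0, Dkk1 was at least 8.30-fold higher in conduit nerves (edgeR adjusted p = 0.0025). Notum, the enzyme that removes the Wnt lipid, had 0, 0 and 1 counts in the untreated and 24, 36 and 23 counts in the conduit libraries. The pooled CPM ratio was 105, with an exact Poisson 95% interval of 18.9 to 4151 that covers counting error only (edgeR adjusted p = 0.000829). Dkk2 and Dkk3 were not called (log2 fold changes -0.05 and -0.30), and Dkk4 and Dkkl1, with at most 2 counts, were not tested.

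In the R-spondin, LGR and E3 ligase group 7 of 8 tested members rose and none of the 8 fell. Rspo3 passed the filter through its conduit libraries alone. Without it 6 of 7 rose, 85.7% against 24.0% of all genes. That share still holds Rspo4 (8, 7 and 14 untreated counts) and Rnf43 (8, 11 and 11). Both reached the filter's limit in only part of the untreated libraries and were tested with the help of conduit libraries. Lgr5, an R-spondin receptor known as a stem cell marker in intestine, had 3.09, 2.22 and 4.42 CPM in the untreated and 39.0, 37.8 and 31.6 CPM in the conduit libraries. The groups lay far apart, with a log2 fold change of 3.48 ± 0.27 (edgeR adjusted p = 0.000118). Lgr6, its close relative, had 0.346, 0.505 and 0.736 CPM in the untreated and 20.0, 14.6 and 13.1 CPM in the conduit libraries. It was near the limit of the filter in untreated nerve and rose by 4.91 ± 0.34 on the log2 scale (edgeR adjusted p = 9.58e-05). Lgr4, the most abundant receptor of the 3, rose from 47.9 ± 9.14 to 94.4 ± 9.62 CPM (log2 fold change 0.98, edgeR adjusted p = 0.0024). In FPKM, Lgr4 went from 71.5% to 52.8% of the summed level of this group and Lgr5 from 6.33% to 26.0%, and the ratio of Lgr5 to Lgr4 within a library was 0.0911 ± 0.0388 in untreated and 0.493 ± 0.0349 in conduit nerves.

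The R-spondin ligands themselves were low. Rspo4 rose from 0.212 ± 0.0965 to 1.77 ± 0.272 CPM (log2 fold change 3.05, edgeR adjusted p = 0.00121), and Rspo3 from 0.121 ± 0.0258 to 0.736 ± 0.456 CPM (log2 fold change 2.57, edgeR adjusted p = 0.00881), or by 1.98 without conduit replicate 3. Rspo1 was the exception, at 4.63 ± 1.12 and 5.49 ± 1.03 CPM and not called (log2 fold change 0.24), and Rspo2, with at most 18 counts, was not tested. Rnf43, an E3 ligase that R-spondins hold back, rose from 0.216 ± 0.0403 to 1.93 ± 0.258 CPM (log2 fold change 3.14, edgeR adjusted p = 0.000476). Znrf3, the other ligase, rose from 1.33 ± 0.706 to 3.43 ± 0.516 CPM (log2 fold change 1.36, edgeR adjusted p = 0.0306). That call was lost with library totals (edgeR adjusted p = 0.0971) and without untreated replicate 1 or 3 or any 1 of the conduit replicates (0.0583 to 0.0810).

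Inside the cell, 2 of the 7 members of the beta-catenin, Axin and TCF/LEF group were called, Axin2 and Tcf7l2, both higher. That is 28.6%, against 50.2% of all genes called and 24.0% higher. Axin2, a scaffold of the destruction complex and itself a widely used beta-catenin target, and Dkk1, another known target, were the only called members with a listed promoter holding the TCF/LEF core CTTTGA. The 250 bases before the start are shown from RefSeq (GRCr8), 5′ to 3′ on the gene's strand, with CTTTGA or its reverse complement TCAAAG in capitals (Axin2, chr10:94398535-94398784, plus strand; Dkk1, chr1:237798651-237798900, minus strand).
Axin2: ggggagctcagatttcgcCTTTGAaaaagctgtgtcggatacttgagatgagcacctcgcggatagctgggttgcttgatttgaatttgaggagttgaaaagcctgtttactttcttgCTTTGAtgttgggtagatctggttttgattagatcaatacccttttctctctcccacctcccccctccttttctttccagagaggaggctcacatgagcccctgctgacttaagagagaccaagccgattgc
Dkk1: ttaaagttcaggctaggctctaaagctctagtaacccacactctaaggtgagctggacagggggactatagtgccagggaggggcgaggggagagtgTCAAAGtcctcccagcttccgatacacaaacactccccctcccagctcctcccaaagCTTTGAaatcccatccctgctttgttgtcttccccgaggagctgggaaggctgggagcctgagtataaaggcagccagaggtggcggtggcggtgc
The Axin2 matches begin 232 and 132 bases before the start, both forward, and those of Dkk1 begin 153 bases before it in reverse and 96 bases before it forward. Both strands were searched from 250 bases before to 50 after the start. A match was found in 6 of the 44 members with a listed promoter and in 2 of the 17 called members with one. It was found in 16.1% of all 33469 listed promoters, a larger share than among members or called members. Fzd7, not called, held 3 matches, more than Axin2 or Dkk1 at 2 each. Lgr5, Notum and Znrf3, called higher, have no listed promoter. A match describes letters and not binding.

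Axin2 had 6.73, 10.2 and 6.28 CPM in the untreated and 13.9, 15.1 and 16.1 CPM in the conduit libraries. All conduit libraries lay above the highest untreated one, replicate 2, and the log2 fold change was 0.96 ± 0.22 (edgeR adjusted p = 0.00922). The call depends on scaling: with library totals alone Axin2 was at 0.56 (edgeR adjusted p = 0.0773). The limma fits on FPKM lost the call too (limma adjusted p = 0.0606, 0.0636 and 0.126). In FPKM the groups overlapped at their edge, with untreated replicate 2 at 2.27 and conduit replicate 1 at 2.25. The ratio of Axin2 to Axin1 FPKM within a library, which scaling cannot move, was 0.0965, 0.142 and 0.0903 in the untreated and 0.221, 0.271 and 0.274 in the conduit libraries, without overlap. Axin1 itself went from 15.1 ± 0.742 to 9.69 ± 0.691 FPKM, so the ratio reflects both genes and not Axin2 alone. Lef1, the other marker of beta-catenin output, had 8.61, 5.21 and 5.20 CPM in the untreated and 10.4, 9.55 and 6.84 CPM in the conduit libraries. Untreated replicate 1 overlapped the conduit group and Lef1 was not called (log2 fold change 0.49 ± 0.28, edgeR adjusted p = 0.177); without that library it was (0.77, edgeR adjusted p = 0.0417). Tcf7l2, the main TCF factor of many adult tissues, rose from 11.3 ± 2.53 to 19.2 ± 1.28 CPM (log2 fold change 0.77, edgeR adjusted p = 0.0114), a call lost with library totals (0.38, edgeR adjusted p = 0.115). Tcf7 and Tcf7l1 were not called (log2 fold changes -0.14 and 0.53).

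Axin1, the constant scaffold of the destruction complex, had 47.1, 48.5 and 46.9 CPM in the untreated and 42.3, 37.6 and 39.7 CPM in the conduit libraries. The groups did not overlap, yet the difference was not called (log2 fold change -0.25, edgeR adjusted p = 0.0854). Ctnnb1, beta-catenin, had 320, 421 and 359.96 CPM in the untreated and 333, 299.6 and 358 CPM in the conduit libraries, which overlapped (log2 fold change -0.15, edgeR adjusted p = 0.444). With library totals alone, both were called lower (Axin1 -0.64, edgeR adjusted p = 0.00274; Ctnnb1 -0.54, edgeR adjusted p = 0.03). Ctnnb1 held 78.9% and 74.5% of the FPKM of this group in untreated and conduit nerves.

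**Figure D4:**
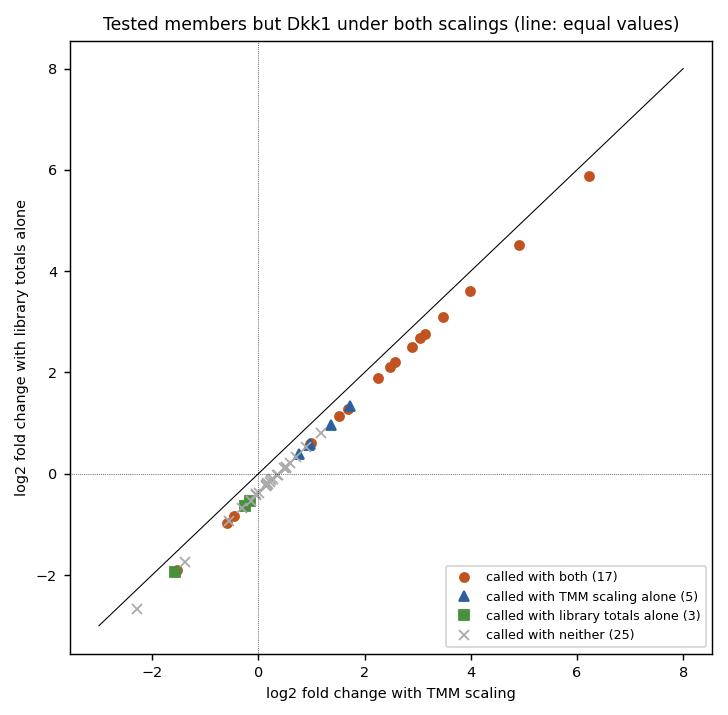
Log2 fold change of 50 tested members (Dkk1 is not drawn) with TMM scaling on the x axis and with library totals alone on the y axis; the line marks equal values. Points lie below the line by about the median shift of 0.39, which takes Axin2, Fzd1, Tcf7l2, Wnt16 and Znrf3 out of the calls and adds Axin1, Ctnnb1 and Sfrp2 as lower.

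Genes of the same pathway outside the members were read from lists of its parts, and each list's shares stand beside 24.0% of all genes higher and 26.2% lower (14.8% and 42.4% with library totals). Of 18 genes listed with the destruction complex and Dishevelled, not all of them parts of either, 6 rose and 1 fell (33.3% and 5.56%, median log2 fold change 0.39). With library totals, however, 2 rose and 5 fell. The number that rose was also 2 without conduit replicate 2 and 3 without untreated replicate 1 or 3 or conduit replicate 3. Apc2, a relative of the tumour suppressor Apc, rose from 4.81 ± 2.84 to 46.6 ± 3.11 CPM (log2 fold change 3.28, edgeR adjusted p = 0.000505), or by 3.88 without untreated replicate 3, and Dvl1, which relays the Frizzled signal, by 0.87. Csnk1g1, a casein kinase, was the gene that fell (-0.96, edgeR adjusted p = 0.0128; 0.0515 without conduit replicate 1). Of 16 nuclear partners of beta-catenin 4 rose and 2 fell (25.0% and 12.5%). Those that rose include the co-repressor Tle1 (15.4 ± 0.717 to 39.3 ± 4.16 CPM, log2 fold change 1.35) and the beta-catenin antagonists Ctnnbip1 (0.93) and Cby1 (0.82); the fourth, Tle2 (1.24), and the pair that fell, Tle4 (-0.90) and Ctbp1 (-0.42), also co-repressors, are named after their values were seen. Ctbp1 was not called when untreated replicate 1 or 3 or any 1 of the conduit replicates was left out (edgeR adjusted p = 0.0502 to 0.115).

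Among 25 other modulators and co-receptors 22 were tested, 9 rose and 4 fell (40.9% and 18.2%), or 7 and 6 with library totals. Nkd1, a feedback antagonist that binds Dishevelled, rose from 11.5 ± 2.37 to 52.8 ± 6.46 CPM (log2 fold change 2.20, edgeR adjusted p = 0.000139). Cthrc1, a secreted protein reported to stabilise Wnt complexes with Frizzled and Ror2, fell by 2.91 on the log2 scale from 45.1 ± 15.1 CPM in untreated nerves, and Tpbg, a membrane inhibitor, by 2.77. The other genes that fell, named after their values were seen, were Trabd2b (-1.59) and Igfbp4 (-1.53). Besides Nkd1, and named in the same way, Sostdc1 (2.95), Shisa2 (2.34), Shisa3 (2.21), Dact3 (1.96), Reck (1.68), Gpc3 (1.14), Ndp (1.06) and Adgra2 (0.73) rose. With library totals the calls of Gpc3 and Adgra2 were lost (edgeR adjusted p = 0.123 and 0.196). Of 18 planar cell polarity genes 9 rose and 2 fell (50% and 11.1%, median log2 fold change 0.68), or 6 and 3 with library totals. Celsr2, an atypical cadherin, rose from 33.8 ± 12.4 to 270.4 ± 38.5 CPM (log2 fold change 3.00, edgeR adjusted p = 0.000194), the scaffold Scrib by 1.09 and the formin Daam2 by 1.57. Named after their values were seen, Celsr1 (1.42), Intu (1.03), Prickle2 (1.01), Prickle1 (0.81), Daam1 (0.72) and Invs (0.64) rose too. With library totals the calls of Prickle1, Daam1 and Invs were lost (edgeR adjusted p = 0.217, 0.113 and 0.284). Prickle3 (-0.72) and Dchs1 (-0.95) fell and are named after their values were seen; the call of Prickle3 was lost without conduit replicate 2 (edgeR adjusted p = 0.0623) and that of Dchs1 without untreated replicate 2 or conduit replicate 1 (0.0614 and 0.0687).

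Of 29 known beta-catenin targets 25 were tested, 10 rose and 6 fell (40.0% and 24.0%, against 24.0% and 26.2% of all genes), with a median log2 fold change of 0.06; with library totals 7 rose and 9 fell. The list holds 8 of the Wnt members: Axin2, Lgr5, Notum, Rnf43, Znrf3 and Dkk1 rose and Lef1 and Tcf7 were not called. Of these, Dkk1 and Notum were tested only through their conduit libraries, and Rnf43 reached the filter's limit in only part of the untreated libraries. Of the 17 other targets tested, 4 rose and 6 fell (23.5% and 35.3%). Nkd1 rose as above, and Ccn4, a secreted matrix-associated protein, from 32.1 ± 5.71 to 133 ± 19.4 CPM (log2 fold change 2.05, edgeR adjusted p = 0.000150). Fosl1, a subunit of the AP-1 transcription factor, fell from 44.1 ± 8.89 to 0.9502 ± 0.543 CPM (-5.52, edgeR adjusted p = 0.000113). Named after their values were seen, Irs1 (1.80) and Tcf4 (0.58, an E-box factor and not Tcf7l2) rose, and Cd44 (-2.34), Myc (-1.63), Ccnd1 (-1.60), Ccn5 (-1.39) and Bambi (-1.09) fell. The call of Tcf4 was lost with library totals (edgeR adjusted p = 0.294), and that of Ccn5 on leaving out any of untreated replicates 1 and 3 and conduit replicates 1 and 2 (0.0506 to 0.0698). Ccnd1 and Myc are also genes of the cell cycle, and the proliferation list fell in the same libraries (8 of 8 genes); its part in their change was not tested.

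**Figure D5:**
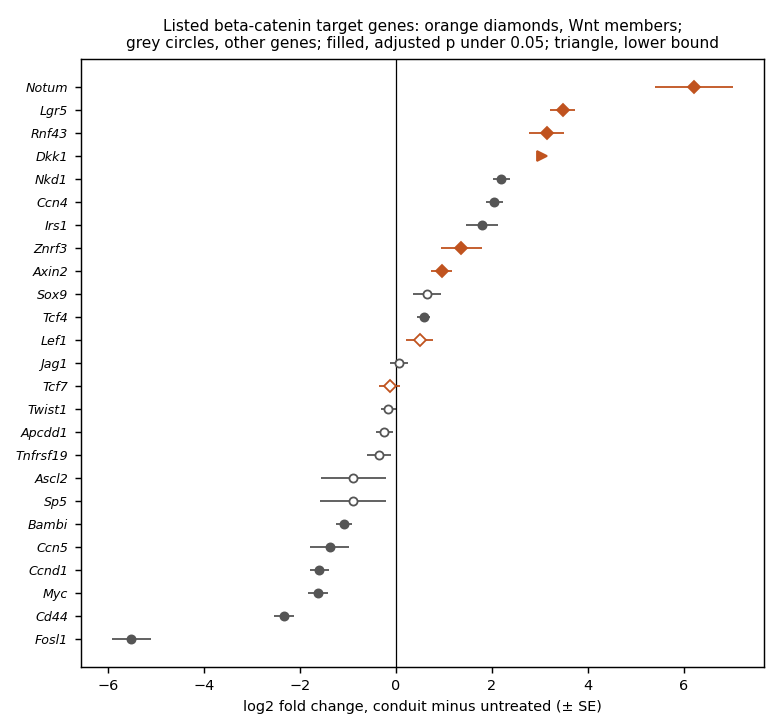
Log2 fold change (conduit minus untreated, bars are SE) of the 25 tested beta-catenin targets, diamonds for Wnt members and circles for other genes, filled where called; the triangle for Dkk1 is a lower bound. The called Wnt members all lie to the right. Of the other targets, the 6 called lower, from Bambi to Fosl1, lie to the left and the 4 called higher lie to the right.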

How the data were processed

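RNA from sciatic nerve was sequenced in 3 untreated and 3 conduit libraries, grouped by the labels' treatment. The authors deposited raw counts per gene and FPKM, which for 20504 of 20504 genes matched the counts scaled by library total and a fixed length per gene (relative tolerance 0.0001). The tools named, per the submitters' processing notes, are HISAT2, HTSeq, fastp and DESeq2, and the build is mRatBN7.2; strand handling is not given in the sources used here, so reads of overlapping or antisense genes may not have been told apart.

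Counts were fitted in edgeR 4.0.16 (R 4.3.3) and tested two-sided by quasi-likelihood F, with TMM scaling, filterByExpr (minimum count 10) and the group as the only term. P-values were Benjamini-Hochberg adjusted over 15464 genes, and the SE is the size of the log2 fold change over the root of F. The script was tested on simulated data. Shares of a role are sums of deposited FPKM within a library. Cell and pathway lists were described by counts alone, and Ly6a and Mylpf had no row.

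Values by library are given for called members with a log2 fold change of at least 1 in size and a mean of 5 CPM in the higher group, for Axin2 and Lef1, and for some members chosen after their values were seen. Of each pathway list, the 3 called genes with the smallest p are named, and others where stated. The members, lists and alternatives were chosen with earlier results of these data known. Alternatives were RLE scaling, library totals, DESeq2 1.42.0, no filter, a floor of 5 CPM in 3 libraries, robust dispersions, a replicate block, limma 3.58.1 on log2(FPKM + 1) for FPKM of at least 0.5, the same without the filter or with a pseudocount of 0.1, and each library left out in turn. Promoters were matched by symbol in RefSeq's table for GRCr8, which is not the build of the counts.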

Additional observations from a re-analysis of the deposited data

How the results depend on the processing

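Of the 23 called members, 8 kept their call and direction in all 16 alternatives, and 6 (Dkk1, Fzd9, Notum, Rnf43, Rspo4 and Wif1) in the 13 to 15 that tested them. Of these 6, Dkk1 and Notum passed the main filter through the conduit libraries alone. Fzd9, Rnf43 and Rspo4 reached its limit in only part of the untreated libraries. Their kept calls are therefore not free of the filter. The other 9 lost the call in at least 1, and 0 reversed. Among the 28 not called, 10 gained a call in at least 1 alternative and 16 changed sign. Members called higher numbered 10 with 5 CPM in 3 libraries, where fewer were tested, and 9 with limma at either pseudocount on FPKM; members called lower numbered 6 with library totals, 1 without the filter, and 6, 6 and 5 in the limma fits (pseudocounts of 1 and 0.1, then no filter), and 1 to 4 with a library left out. The members' median was 0.12 with library totals, 0.28 with 5 CPM, -0.010, 0.012 and 0.0076 in the limma fits and 0.33 to 0.77 with a library left out (highest without untreated replicate 3). The median over all genes tested was -0.43 with library totals, -0.039 with 5 CPM and -0.34, -0.42 and -0.26 in the limma fits. It ran from -0.042 to -0.018 with a library left out. In the destruction complex list 2 genes rose with library totals and in each limma fit and 2 to 8 with a library left out, and 5 fell with library totals, 6, 6 and 4 in the limma fits and 0 to 1 with a library left out. Nuclear partners that fell numbered 1 to 2, and polarity genes that fell 1 to 2, with a library left out; polarity genes that rose numbered 5 in the unfiltered limma fit, and targets that rose 6 with 5 CPM and 4 in limma with either pseudocount.

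Library totals reversed the log2 fold change of uncalled members: Fzd2 -0.16, Fzd3 -0.37, Fzd5 -0.21, Fzd8 -0.23, Lrp5 -0.24, Ror1 -0.030, Rspo1 -0.13, Wls -0.031, Wnt11 -0.23, Wnt2 -0.19 and Wnt9a -0.11, and of the called list gene Gsk3a -0.051. On log2(FPKM + 1), with or without the filter, they were Fzd2 -0.11, Fzd3 -0.23, Fzd5 -0.072, Fzd8 -0.17, Lrp5 -0.23, Rspo1 -0.090, Wls -0.021, Wnt11 -0.055, Wnt9a -0.073 and Gsk3a -0.041, with Wnt2 at -0.031 unfiltered. With 0.1 they were Fzd2 -0.11, Fzd3 -0.32, Fzd5 -0.17, Fzd8 -0.22, Lrp5 -0.26, Rspo1 -0.12, Wls -0.022, Wnt11 -0.013, Wnt9a -0.11 and Gsk3a -0.042. These FPKM values carry library totals by construction. With a library left out, values crossed 0 for Dkk2 (-1.07 to 0.34), Dkk3 (-0.50 to 0.11), Fzd3 (-0.12 to 0.23), Fzd4 (-0.66 to 0.28), Lrp5 (-0.041 to 0.30), Tcf7 (-0.25 to 0.11), Wnt11 (-0.23 to 0.85), Wnt2 (-0.48 to 0.52) and Wnt7b (-1.91 to 0.12); the cause was not tested.

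Samples with the same replicate number correlated at 0.144, -0.028 and 0.064 in their deviations from the group means, and not every sample correlated best with its own number. With 3 libraries a group these values cannot decide whether the numbers pair samples, and the labels give no pairing. With the replicate block, 23 members were higher and 4 lower, and 7514 genes were called. Tcf7l1, Fzd7 and Wnt5a gained a call as higher (edgeR adjusted p = 0.0215, 0.0222 and 0.0148) and Sfrp2 as lower (edgeR adjusted p = 0.00396). Members below about 1 CPM rest on few counts.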
